A study of Mus musculus with 2 samples.

Results

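The genes described here are 50 genes of mitosis, the spindle and the kinetochore, in mRNA-seq of Dnmt1+/+ and Dnmt1-/- mouse embryonic fibroblasts (MEFs). They were chosen by name, from what the proteins do in cell division, but with earlier results of these data known. Each of the 50 was found once among the 14865 entries that carried a gene symbol and the status OK. Cuffdiff gives this label to entries with enough reads. The 2 libraries, 1 per genotype, were made strand-specifically from total RNA of cultured cells. In the cells labelled Dnmt1-/-, both copies of Dnmt1 carry a hypomorphic allele, and the cells of both genotypes lack p53. The strain is given as unknown, and each genotype rests on 1 library of cultured cells, for which no number of embryos is given. Dnmt1, which copies DNA methylation onto newly made strands, had 65.2 RPKM in Dnmt1+/+ and 14.5 in Dnmt1-/- MEFs. Trp53, which encodes p53, still had transcripts in the p53-null cells, at 18.6 and 19.9 RPKM.

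RPKM is the number of reads on a transcript scaled to the length of the transcript and to the mapped reads of the library. This puts genes and libraries on a common scale. It does not correct for base composition, for reads shared with copies or for very short entries, which are described below. The change of a gene is given as log2(RPKM + 0.1) in Dnmt1-/- minus that in Dnmt1+/+ MEFs. Among all 14865 named entries the median change was -0.09, and the changes below are read against this value. With 1 library per genotype there is no replicate check, no test and no error between replicates, and all values describe these 2 libraries. The deposited values hold no read counts, so no counting interval is given either.

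The fibroblast markers were the highest of the marker lists examined. Col1a1 had 1448 RPKM in Dnmt1+/+ and 897.7 in Dnmt1-/- MEFs, and Vim had 2269 and 1873. Other fibroblast markers differed more widely between the libraries, and which markers to name was decided with their values in view. Thy1 had 4.84 and 0.129 RPKM, Postn 176.6 and 13.7, Fn1 663.7 and 235.5, and S100a4 289.6 and 1262. Over all 10 fibroblast markers the levels ranged from 4.84 to 2269 RPKM in Dnmt1+/+ and from 0.129 to 1873 in Dnmt1-/-, with sums of 6465 and 4989. None of the 6 epithelial markers exceeded 0.203 RPKM in Dnmt1+/+ or 1.46 in Dnmt1-/- MEFs, and their sums were 0.363 and 2.19. The 5 endothelial markers summed to 0.475 and 0.679 RPKM. Of 6 leukocyte markers, Ptprc, Emr1 and Cd3e were listed at 0 in both libraries, and Cd68 reached 0.596 and 3.63 RPKM. Of 5 neural markers found, Rbfox3 and Olig2 were listed at 0 in both, and Tubb3 had 16.9 and 12.9 RPKM. The part of these differences in the results on mitotic genes was not tested.

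In mitosis, cyclin-dependent kinase 1 (Cdk1) bound to A- and B-type cyclins drives chromosome condensation and spindle formation. Kinetochores, built on centromeric chromatin, attach chromosomes to spindle microtubules, and the spindle assembly checkpoint holds back the anaphase-promoting complex (APC/C) until all are attached. The genes concerned are transcribed mainly in the G2 and M phases, so that in an unsynchronised culture their mRNA depends on how many cells are in those phases. Many of their promoters carry CCAAT boxes, bound by the factor NF-Y, and a cell cycle genes homology region (CHR), through which the MuvB complex acts together with B-Myb and FoxM1, or with the DREAM repressor.

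Promoter sequences were looked at because Dnmt1 acts on CG dinucleotides and because these motifs are shared by genes of the G2 and M phases. RefSeq promoter windows, from 250 bases before to 50 bases after an annotated start site, were found for 41 of the 50 genes, in 46 windows. Each of the 46 windows matched the mm9 genome exactly, once on its chromosome. No window was found for Ccna2, Cdc25c, Foxm1, Aurkb, Incenp, Spc24, Tpx2, Kif20a and Smc4. The windows shown are those of the B-type cyclins Ccnb1 and Ccnb2, which differed from each other in their change, of their kinase partner Cdk1, and of Cenpe and Birc5, which lay past 2-fold in opposite directions. Capitals mark CCAAT (or ATTGG, the same motif on the opposite strand) and the CHR letters TTTGAA or TTTAAA on either strand, and overlapping matches are counted separately.
Ccnb1: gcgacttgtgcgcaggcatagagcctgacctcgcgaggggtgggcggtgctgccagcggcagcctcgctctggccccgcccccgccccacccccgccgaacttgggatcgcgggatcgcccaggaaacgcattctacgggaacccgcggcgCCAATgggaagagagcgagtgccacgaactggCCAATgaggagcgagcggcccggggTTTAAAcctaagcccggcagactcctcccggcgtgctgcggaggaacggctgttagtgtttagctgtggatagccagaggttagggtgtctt
Ccnb2: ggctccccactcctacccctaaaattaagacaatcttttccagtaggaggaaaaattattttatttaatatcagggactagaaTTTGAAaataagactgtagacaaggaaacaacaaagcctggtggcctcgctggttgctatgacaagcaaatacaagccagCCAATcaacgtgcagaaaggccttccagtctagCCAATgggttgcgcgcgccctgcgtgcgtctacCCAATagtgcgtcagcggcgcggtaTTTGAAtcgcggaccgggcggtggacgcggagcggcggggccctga
Cdk1: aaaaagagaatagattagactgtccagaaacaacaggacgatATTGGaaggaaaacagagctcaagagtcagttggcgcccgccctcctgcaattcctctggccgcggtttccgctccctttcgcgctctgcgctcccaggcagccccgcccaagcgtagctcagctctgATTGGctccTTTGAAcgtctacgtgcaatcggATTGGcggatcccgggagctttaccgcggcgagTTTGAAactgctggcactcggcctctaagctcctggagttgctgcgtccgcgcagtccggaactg
Cenpe: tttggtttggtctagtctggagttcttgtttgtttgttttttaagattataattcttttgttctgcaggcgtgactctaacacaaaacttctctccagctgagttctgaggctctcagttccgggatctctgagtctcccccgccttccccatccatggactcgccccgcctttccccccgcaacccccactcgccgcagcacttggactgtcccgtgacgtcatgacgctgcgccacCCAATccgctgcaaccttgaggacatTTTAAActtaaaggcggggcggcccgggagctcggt
Birc5: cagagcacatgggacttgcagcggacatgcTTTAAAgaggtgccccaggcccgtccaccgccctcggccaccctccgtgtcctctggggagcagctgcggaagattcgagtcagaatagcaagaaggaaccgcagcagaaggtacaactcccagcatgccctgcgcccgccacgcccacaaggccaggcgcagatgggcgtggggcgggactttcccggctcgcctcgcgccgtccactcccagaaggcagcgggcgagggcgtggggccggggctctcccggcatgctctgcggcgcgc
In mm9 these windows are chr13:101556392-101556691 on the minus strand for Ccnb1, chr9:70269312-70269611 on the minus strand for Ccnb2, chr10:68815611-68815910 on the minus strand for Cdk1, chr3:134875277-134875576 on the plus strand for Cenpe and chr11:117710301-117710600 on the plus strand for Birc5.

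The Ccnb1 window held 2 CCAAT boxes, which began 99 and 67 bases before the start site, and a CHR that began 42 bases before it. The Ccnb2 window held 3 CCAAT boxes, at 87, 54 and 21 bases before the start site, and 2 CHR matches. The Cdk1 window held 3 CCAAT boxes, all read on the opposite strand, and 2 CHR matches. In each of these 3 windows, neighbouring CCAAT boxes began 32 or 33 bases apart at least once. A gap of 30 to 36 bases between neighbouring boxes was found in 7 of the 46 windows (15.2%), against 2.67% of the 12864 windows of named entries with status OK. The Cenpe window held 1 CCAAT box and 1 CHR, both close to the start site, whereas that of Birc5 held no CCAAT box and a CHR match only at 220 bases before the start.

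Over all member windows, 36 of 46 (78.3%) held a CCAAT box, against 37.8% of the 12864 windows of named entries and 37.4% of all 32851 windows in the reference. A CHR match was present in 33 windows (71.7%), against 20.01% and 27.6%. Both motifs occurred together in 28 windows (60.9%), against 7.84% of the windows of named entries. Of 67 CCAAT matches, 49 began within 120 bases before the start site. Of 48 CHR matches, 33 began between 50 bases before it and the end of the window. The windows of Bub3, Prc1 and Ect2 overlap within each gene, so these counts of windows and matches include the same motifs more than once. The 5 windows with neither motif were those of Mad2l1, Nuf2, Kif18a, Pttg1 and Ncaph, whose changes ranged from -0.57 for Kif18a to 0.996 for Nuf2. The median number of CG dinucleotides was 23.5 per member window, with a range from 2 in Kif2c to 34 in Ndc80, and 19 in the windows of named entries. The window of Ccnb1 had 29 CG dinucleotides and Ccnb2 had 19. These matches describe the letters in the windows, and no binding or methylation at them was analysed here.

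**Figure D1:**
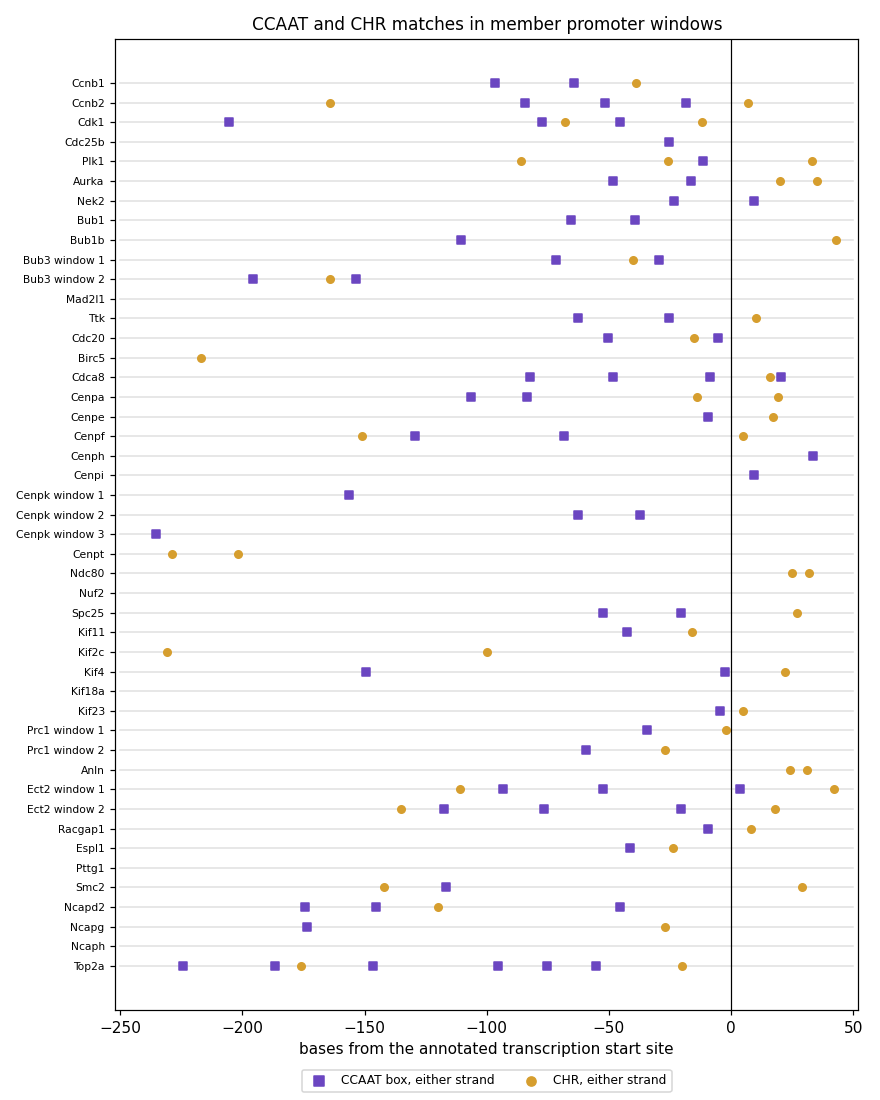
Positions of CCAAT boxes (squares) and CHR matches (circles), on either strand, in the 46 promoter windows of 41 members, in bases from the annotated start site (x axis); each row is a window. CCAAT boxes gather within 120 bases before the start (49 of 67), and CHR matches lie mostly nearer to it or after it (33 of 48 from 50 bases before the start onwards). Motifs in overlapping windows of the same gene (Bub3, Prc1 and Ect2) are counted in each window.

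All 50 genes were expressed in both libraries, at 5 RPKM or more in each, a level that 49.1% of named entries reached in both. Their median was 32.2 RPKM in Dnmt1+/+ and 38.9 in Dnmt1-/- MEFs, against 6.36 and 5.63 over all named entries. The highest was Top2a, at 223.1 and 275.9 RPKM, and the lowest was Kif18a, at 7.71 and 5.17. Across the 50 genes, the log2 levels of the libraries had a Pearson correlation of 0.881, and across the 8017 named entries with a mean RPKM of at least 5 it was 0.795. These correlations are over genes of the same 2 libraries, and genes are not independent.

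Most of the mitotic genes were somewhat higher in Dnmt1-/- MEFs. The change was above 0 for 36 of the 50 (72.0%) and below 0 for 14, whereas 40.5% of all named entries and 41.7% of those with a mean RPKM of at least 5 were above 0. The median change of the 50 genes was 0.27, with quartiles of -0.09 and 0.60. The corresponding values were -0.09, -0.54 and 0.30 for all named entries, and -0.10, -0.45 and 0.24 for those with a mean RPKM of at least 5. Summed over the 50 genes, the RPKM came to 2191 in Dnmt1+/+ and to 2739 in Dnmt1-/-, 1.25 times as much. Of the lists described below, the 86 entries of further mitotic genes summed to 2635 and 2637 RPKM, nearly the same in both libraries. The 44 S-phase genes summed to 1583 and 1895, so a higher sum was not particular to the 50. A larger share of cells in G2 and M and more mRNA per such cell cannot be told apart in these bulk libraries.

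More than 2-fold higher were 2 genes, Aurkb and Birc5 (4% of the 50, against 9.92% of all named entries), and more than 2-fold lower were also 2, Ccnb2 and Cenpe (4%, against 11.1%). Birc5, Ccnb2 and Cenpe have near-identical copies elsewhere in the genome. Among the 36 genes without such copies 1 was higher, Aurkb, and 0 were lower. The background for these is the same 9.92% and 11.1%, from which genes with copies were not removed. As all 50 are well expressed, the shares of entries with a mean RPKM of at least 5 are the closer background, 5.15% higher and 6.47% lower. The remaining 46 genes (92.0%) stayed within 2-fold, as did 88.4% of entries at that level. The share of mitotic genes past 2-fold was thus near the background in both directions. Nuf2 and Kif23 lay just under 2-fold higher, at 1.9989 and 1.99 times, and Bub1 just under 2-fold lower. Centred on the median of all named entries, Nuf2 and Kif23 passed 2-fold and Cenpe, with -0.96, did not.

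**Figure D2:**
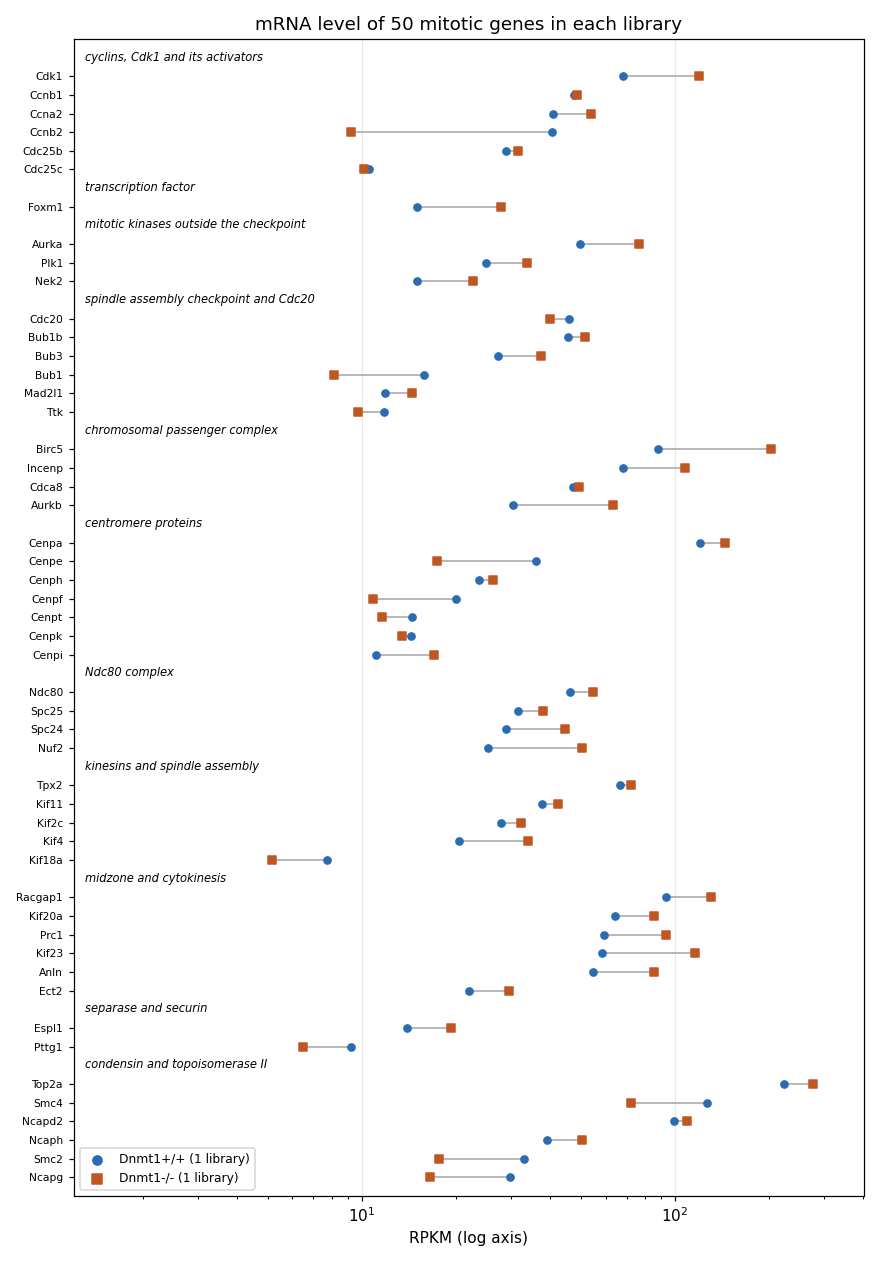
RPKM (log axis) of each of the 50 genes in the Dnmt1+/+ library (circles) and the Dnmt1-/- library (squares), grouped by role and joined by a line for each gene; there is 1 library per genotype and hence no error bar. Squares lie to the right of circles for 36 genes, and the longest line to the left is that of Ccnb2, from 40.4 to 9.19 RPKM.

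**Figure D3:**
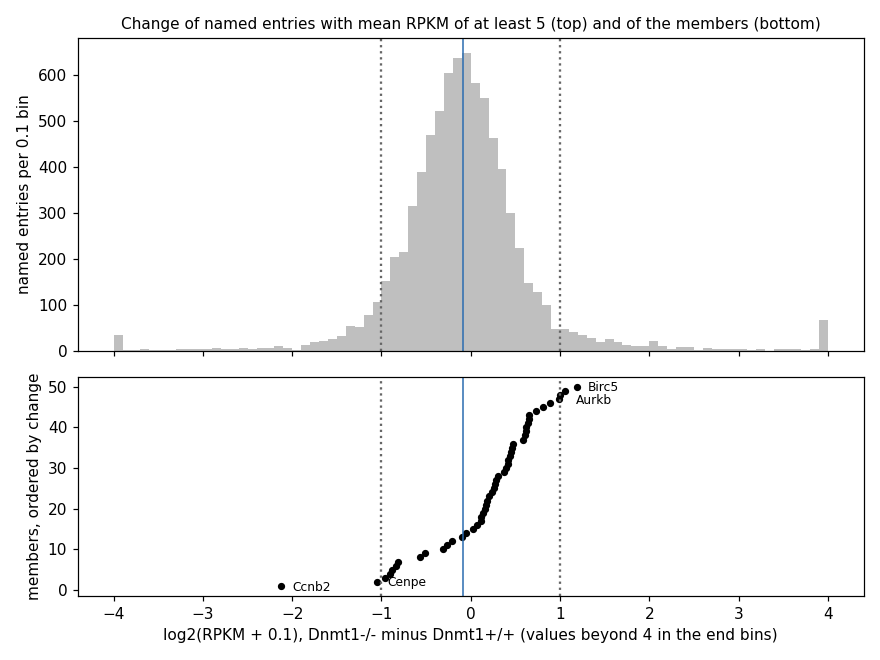
Histogram of the change on the log2(RPKM + 0.1) scale for 8017 named entries with a mean RPKM of at least 5 (top) and the same change for each of the 50 members in order (bottom). The solid line is the median of all named entries, -0.09, and the dotted lines mark 2-fold; 37 of the 50 members lie to the right of the solid line.

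Among the cyclins, the 2 B-type genes parted. Ccnb1, on chromosome 13 from 101548694 to 101556559 on the minus strand of mm9, had 47.7 RPKM in Dnmt1+/+ and 48.6 in Dnmt1-/- MEFs. Ccnb2, on chromosome 9 from 70255496 to 70269361 on the minus strand, had 40.4 and 9.19, and its change was -2.12. It was the lowest change of the 50 genes, and the next, that of Cenpe, was -1.05. The ratio of Ccnb2 to Ccnb1 was 0.847 in Dnmt1+/+ and 0.189 in Dnmt1-/- MEFs, and their summed RPKM was 88.1 and 57.8. Ccna2, the A-type cyclin of S and G2 phase, had 40.9 and 53.7 RPKM. With Ccna2 included, the cyclins summed to 128.9 and 111.6 RPKM.

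Cdk1, the kinase that these cyclins activate, was higher in Dnmt1-/- MEFs, with 68.2 and 119.2 RPKM and a change of 0.81. Its ratio to Ccnb1 was 1.43 in Dnmt1+/+ and 2.45 in Dnmt1-/- MEFs. The phosphatases that activate Cdk1 differed little, as Cdc25b had 28.9 and 31.4 RPKM and Cdc25c had 10.5 and 10.1. Foxm1, a transcription factor of G2 and M phase genes, had 15.0 RPKM in Dnmt1+/+ and 27.7 in Dnmt1-/-, a change of 0.88. Its entry also carries the symbol 4933413G19Rik, so the value may not be of Foxm1 alone.

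The mitotic kinases outside the checkpoint were all higher in Dnmt1-/- MEFs. Plk1, which acts at centrosomes, kinetochores and the midzone, had 24.9 and 33.7 RPKM. Aurka, the Aurora kinase of the spindle poles, had 49.7 and 76.6 RPKM, and Tpx2, its activator on the spindle, had 66.7 and 72.4. The ratio of Aurka to Tpx2 was 0.745 in Dnmt1+/+ and 1.06 in Dnmt1-/-. Nek2, a kinase of centrosome separation, had 15.0 and 22.6 RPKM.

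The chromosomal passenger complex, which corrects wrong attachments and later works in cytokinesis, had the highest median change of the groups with several members, 0.86 over 4 genes. All 4 were higher in Dnmt1-/- MEFs. Aurkb, its kinase, on chromosome 11 from 68859105 to 68865164, had 30.4 RPKM in Dnmt1+/+ and 63.4 in Dnmt1-/-, 2.09 times as much. Birc5 (survivin), on chromosome 11 from 117710519 to 117717057, had 88.5 and 202.6 RPKM, 2.29 times as much. The scaffold Incenp had 68.1 and 107.5 RPKM. Cdca8 (borealin) differed least, with 47.2 and 49.5 RPKM, so that the ratio of Birc5 to Cdca8 was 1.88 in Dnmt1+/+ and 4.10 in Dnmt1-/-.

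The spindle checkpoint genes showed no common direction, with 3 of 6 higher and a median change of -0.01. Bub1, the kinase that recruits checkpoint proteins to kinetochores, had 15.8 RPKM in Dnmt1+/+ and 8.11 in Dnmt1-/- MEFs, a change of -0.96. Bub1b (BubR1), which is part of the inhibitor of the APC/C, had 45.5 and 51.7, and its ratio to Bub1 was 2.87 and 6.37. Their common partner Bub3 had 27.2 and 37.3 RPKM. Mad2l1, the protein that binds Cdc20 while kinetochores are unattached, had 11.8 and 14.4 RPKM. The checkpoint kinase Ttk (Mps1) had 11.7 and 9.72, and Cdc20, the activator of the APC/C that the checkpoint inhibits, had 45.9 and 39.8. Apart from Bub1, the genes of this group had changes between -0.27 and 0.45.

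Of the 7 centromere and kinetochore genes, 3 were higher and 4 lower. The outer fibrous corona proteins Cenpe and Cenpf were lower in Dnmt1-/- MEFs. Cenpe, a kinesin that moves chromosomes to the spindle equator, on chromosome 3 from 134875527 to 134936504 on the plus strand, had 36.1 RPKM in Dnmt1+/+ and 17.4 in Dnmt1-/-. Cenpf had 19.9 and 10.8 RPKM, a change of -0.88. Cenpa, the histone H3 variant that marks centromeres, was the highest of the 7 centromere genes, with 120.1 and 144.0 RPKM. The inner kinetochore genes Cenph, with 23.6 and 26.3 RPKM, and Cenpk, with 14.4 and 13.4, were close in both libraries. Cenpt, which links centromeric DNA to the outer kinetochore, had 14.4 and 11.6 RPKM. Cenpi, another inner kinetochore gene and X-linked, had 11.1 and 17.0.

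The Ndc80 complex, which holds the microtubule ends, was higher in Dnmt1-/- MEFs in each of 4 subunits, and the median change was 0.45. Ndc80 had 46.2 and 54.6 RPKM, and Nuf2, its dimer partner, 25.2 and 50.4. The ratio of Nuf2 to Ndc80 was 0.546 in Dnmt1+/+ and 0.923 in Dnmt1-/- MEFs. Spc24 had 28.9 and 44.4 RPKM and Spc25 had 31.4 and 38.0, and the ratio of this second pair was 0.920 and 1.17. The pairs shared no pattern. Nuf2 and Ndc80 came closer to each other in Dnmt1-/- MEFs, whereas the order of Spc24 and Spc25 was turned and their levels lay further apart.

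Of the spindle kinesins, Kif11 (Eg5), which pushes the poles apart, had 37.5 RPKM in Dnmt1+/+ and 42.1 in Dnmt1-/- MEFs. The microtubule depolymerase Kif2c had 27.8 and 32.1. Kif4, a chromosome-bound kinesin and X-linked, had 20.4 and 33.9, and Kif18a, which dampens chromosome oscillations, had 7.71 and 5.17. Both X-linked members, Cenpi and Kif4, were thus higher in Dnmt1-/- MEFs, a library that also held Xist at 37.0 RPKM, against 0.00648 in Dnmt1+/+. Without these 2 genes the median change of the others was 0.25. X-linked genes of the other cell cycle lists were lower instead, with changes of -0.47 for Smc1a, -1.17 for Stag2 and -1.06 for Pola1. The part of X linkage in these changes was not tested.

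The genes of the midzone and of cytokinesis were higher in Dnmt1-/- MEFs in 6 of 6 cases, with a median change of 0.56 and a range from 0.42 to 0.99. Kif23 and Racgap1, which together form centralspindlin, had 58.3 and 93.3 RPKM in Dnmt1+/+ and 116.0 and 130.1 in Dnmt1-/-. Prc1, which bundles the antiparallel microtubules of the midzone, had 59.3 and 93.5 RPKM. Kif20a, a kinesin that carries the passenger complex to the midzone, had 64.1 and 85.8. Anln (anillin), a scaffold of the contractile ring, had 54.6 and 85.4 RPKM, and Ect2, the exchange factor that activates RhoA there, had 21.998 and 29.4. No gene of this group was lower in Dnmt1-/- MEFs.

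Separase and its inhibitor securin went opposite ways. Espl1 (separase), the protease that opens cohesin, had 13.95 RPKM in Dnmt1+/+ and 19.3 in Dnmt1-/- MEFs, and Pttg1 (securin) had 9.26 and 6.47. The Espl1 to Pttg1 ratio was 1.51 and 2.98. Condensin, which compacts mitotic chromosomes, was split as well. The core ATPases Smc2 and Smc4 were both lower, from 33.0 to 17.6 and from 126.8 to 72.1 RPKM, while their ratio stayed at 3.85 and 4.10. Of the condensin I subunits, Ncapg was lower, with 29.6 and 16.5 RPKM. Ncaph, the kleisin, had 39.0 and 50.6, and Ncapd2 had 99.2 and 109.2, so that the ratio of Ncapg to Ncaph was 0.759 in Dnmt1+/+ and 0.326 in Dnmt1-/-. Top2a, which disentangles sister chromatids, had 223.1 and 275.9 RPKM.

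**Figure D4:**
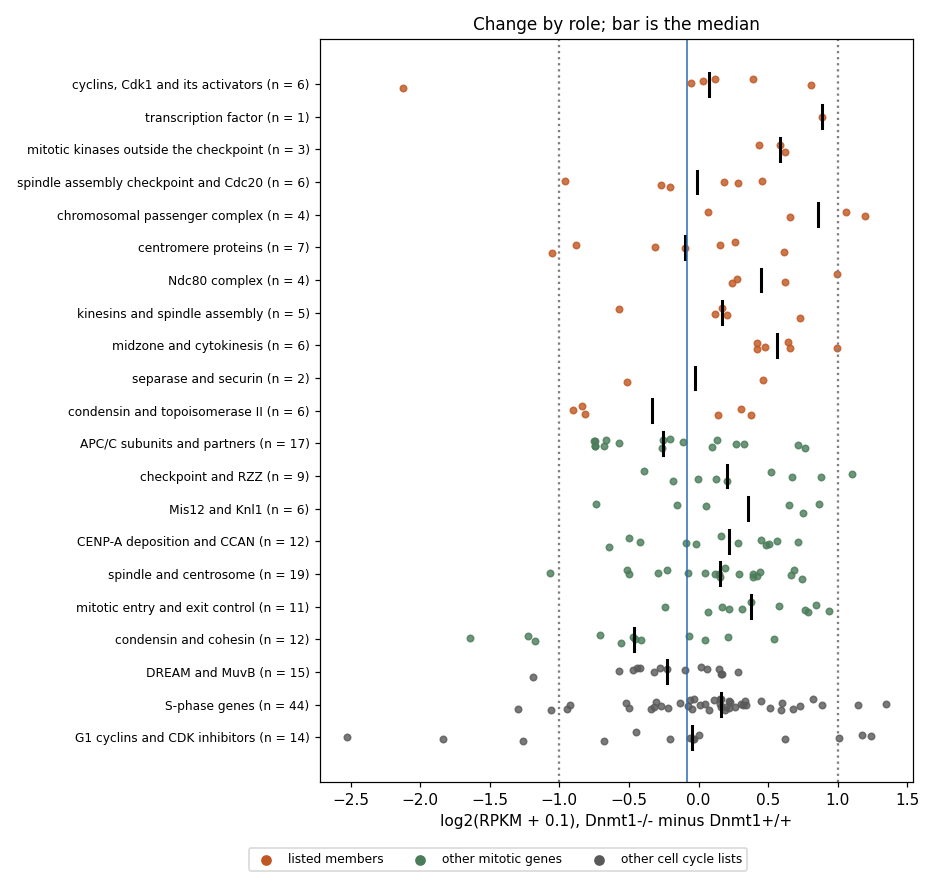
Change on the log2(RPKM + 0.1) scale, Dnmt1-/- minus Dnmt1+/+, of each entry (points) by role, with the median of each role (bars), the median of all named entries (solid line) and 2-fold (dotted lines). The passenger complex, the midzone genes, the mitotic kinases outside the checkpoint, the Ndc80 complex and Foxm1 lie wholly right of the solid line. The condensin and cohesin row has the lowest median, -0.46.

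The further genes of mitosis, a list of 91 symbols other than the 50, had 86 entries with status OK, and 6 symbols had no entry under the names searched. Their median change was 0.12. Of the 86 entries, 1 was more than 2-fold higher, against 9.92% of all named entries, and 4 were more than 2-fold lower, against 11.1%. The higher one was Ccdc99 (spindly), which brings dynein to kinetochores, with 22.1 and 47.5 RPKM. The lower ones included 3 genes of cohesin, the ring that holds sister chromatids together, or of its loading. Nipbl, its loader, had 25.8 RPKM in Dnmt1+/+ and 8.21 in Dnmt1-/-, Smc3 had 102.7 and 43.9, and Stag2, which is X-linked, had 46.5 and 20.6. Ckap5, a microtubule polymerase at 53.6 and 25.6 RPKM, was the other, and was named after its values were seen.

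By role, the further entries of condensin and cohesin had a median change of -0.46, with 9 of 12 below 0, where 55.5% of all named entries lay. The subunits and partners of the APC/C, the ubiquitin ligase that ends mitosis, had a median of -0.26, and their 11 of 17 below 0 were near that background. The regulators of mitotic entry and exit had a median of 0.37, with 10 of 11 above 0, against 40.5% of all named entries, and the Mis12 and Knl1 group, the rest of the outer kinetochore, had 0.35 over 6 entries. The medians of the checkpoint and RZZ genes, the CENP-A deposition and inner kinetochore genes, and the spindle and centrosome genes were 0.20, 0.22 and 0.15.

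Genes of other cell cycle phases were set beside the 50. The 44 S-phase genes, such as the Mcm helicase and polymerase subunits, had a median change of 0.16, with 28 above 0 and with 2 entries past 2-fold in each direction, against 9.92% of all named entries higher and 11.1% lower, so that neither count stood above the background. Tk1, at 12.9 and 33.0 RPKM, and Rrm2, at 44.9 and 99.4, both of which supply nucleotides, were the higher ones, and E2f2, at 1.13 and 0.402, and Pola1, at 33.9 and 16.2, the lower ones. The list of DREAM and MuvB, which act on CHR promoters, and of related pocket proteins, had a median of -0.22 over 15 entries, of which 1, the lesser of the 2 Rb1 entries, at 1.31 and 0.520 RPKM, lay past 2-fold, in the lower direction, where 11.1% of all named entries lay. Among 14 entries of G1 cyclins, their kinases and inhibitors, 3 were more than 2-fold lower, against 11.1% of all named entries, namely Cdkn1a (p21), at 8.61 and 1.41 RPKM, Cdkn2b, at 65.9 and 18.4, and Cdkn2a, at 327.9 and 137.0. Another 3 were counted as more than 2-fold higher, against 9.92%, and were 2 entries of Cdkn2d, at 4.10 and 9.83 and at 4.56 and 10.4 RPKM, and Cdkn1c, which was listed at 0 in Dnmt1+/+ and had 0.101 in Dnmt1-/-. The Cdkn2d entries lie at separate places on chromosome 9, and whether they share reads was not tested. The 3 higher entries thus stand for no genes other than Cdkn2d and Cdkn1c. None of these lists was tested against another.

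The base composition of the transcripts moved with the change. The GC content of the longest protein-coding transcript had a Spearman correlation of 0.34 with the change across the 50 genes and of 0.16 across 7838 named entries with a mean RPKM of at least 5, given as a description over genes of the same libraries. After Ccnb2, at 49.1% GC, the 7 genes with the lowest change were Cenpe, Bub1, Smc2, Cenpf, Ncapg, Smc4 and Kif18a, with between 38.3% and 43.3% GC. Of the 25 genes below the members' median of 47.2% GC, 10 had a change below 0 and the median was 0.17. Of the 25 above it, 4 had a change below 0 and the median was 0.42. Named entries with a mean RPKM of at least 5 had medians of -0.21 below and -0.04 above the same GC content. Transcript length had a Spearman correlation of 0.01 with the change across the 50 genes and -0.12 across the named entries. The part of GC content in the differences between groups was not tested.

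**Figure D5:**
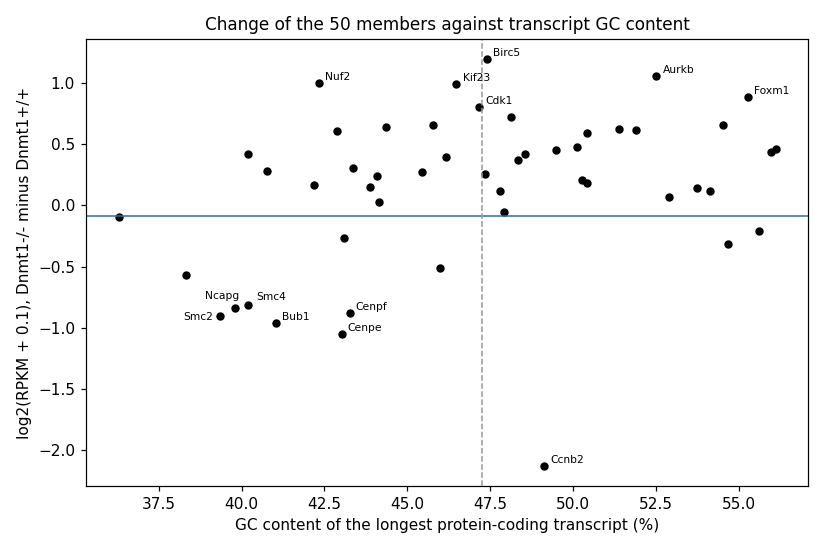
Change of each of the 50 members on the log2(RPKM + 0.1) scale (y axis) against the GC content of its longest protein-coding transcript in percent (x axis), with the median change of all named entries (solid line) and the members' median GC content of 47.2% (dashed line). The lower left holds Cenpe, Bub1, Smc2, Cenpf, Ncapg and Smc4, while Ccnb2 lies alone at 49.1% GC.

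Reads of a gene may also map to close copies elsewhere in the genome. Near-identical copies, of at least 90% identity over 300 or more aligned bases, were found for 14 of the 50 genes, namely Birc5, Bub3, Ccnb1, Ccnb2, Cdc20, Cenpe, Foxm1, Ncapd2, Ndc80, Nek2, Plk1, Prc1, Racgap1 and Smc2. Ccnb1 had 5 such copies, the closest being 1525 aligned bases on chromosome 7 at 99.1% identity. Those of Ccnb2 were 3 stretches of 327 bases on chromosome 14, at 93.9%. The values of these 14 genes are uncertain to that extent. Among the 36 genes without such a copy, the median change was 0.27. Some loci also overlap those of other genes, as Ccna2 does with Exosc9, Cdc20 with Elovl1, Cenpk with Ppwd1, Kif4 with Pdzd11, Kif20a with Brd8 and Cdc23, Ncapg with Lcorl, and Smc4 with Mir15b and Mir16-2.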

How the data were processed

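Strand-specific mRNA-seq was measured in 1 library of Dnmt1+/+ and 1 of Dnmt1-/- MEFs. The authors used TopHat to map reads to mm9 and Cufflinks to assemble transcripts, and deposited the RPKM of each entry as given by Cuffdiff, with its status. Program versions, the handling of reads with several matches, any scaling between libraries beyond mapped reads, and the use of strand in assigning reads are not given in the sources used here, so overlapping genes are uncertain. The deposited values give no read depth, and the numbers of mapped reads that the paper lists for both libraries were not used.

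Entries that had a gene symbol and whose status was OK entered, with no filter on low RPKM. Changes are differences of log2(RPKM + 0.1), which understates changes of low genes, and a change past 2-fold was counted in each direction. The members and lists were chosen with earlier results of these data known. All members are named, and of the other cell cycle lists at most the 3 largest rises and falls past 2-fold. Ckap5, Smc1a, Rad21, Stag1, Cdc23 and the cell type markers are named beside this rule, after their values were seen. Summaries were tested on simulated data. Member transcripts (GENCODE vM1, NCBIM37, the same assembly as mm9) were aligned to the genome with minimap2 2.31 to find copies. Promoter windows came from the RefSeq table (GRCm38.p6), and their mm9 positions from an exact match. Starts in the deposited table count from 0 and are given from 1. Python 3.11.15, numpy 2.4.6, pandas 2.3.3 and matplotlib 3.10.9 were used. Alternatives were other pseudocounts (1 and 0.01), filters on low RPKM, a threshold of 1.5-fold, centring on the median change, and leaving out X-linked genes or joint entries. A mean RPKM of at least 5 and leaving out genes with copies were added after seeing the data.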

Additional observations from a re-analysis of the deposited data

Results flagged for a closer look

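Outside the members' own entries, 12 entries without a gene symbol lay at the near-identical copies of 8 of the 50 genes, between 69 and 1268 bases long. They were looked at after the copies had been found. For 5 genes these entries were higher in Dnmt1-/- than in Dnmt1+/+ MEFs, which is why they are listed. RPKM is scaled to length and several of these entries are very short, so their levels should not be compared with those of the genes. An entry of 114 bases, which lay only partly within a copy of Birc5 on chromosome 9, had 2184 RPKM in Dnmt1+/+ and 4193 in Dnmt1-/-. The changes were 0.94 for the entry and 1.19 for Birc5. The entry at a copy of Bub3 on chromosome 9, 83 bases long, had 4142 and 7214 RPKM. At a copy of Ndc80 on chromosome 13, 1313 and 1569 RPKM were listed, and at a copy of Ncapd2 on chromosome 16, 209.1 and 273.9. The 3 entries at a copy of Prc1 on chromosome 2 had 47.5 and 88.8, 65.7 and 118.8, and 120.03 and 192.1 RPKM. For the other 3 genes the entries were lower in Dnmt1-/-. Those at a copy of Cenpe on chromosome 6 had changes of -0.41, -0.78 and -1.49, where Cenpe had -1.05, that at a copy of Smc2 on chromosome 17 had -1.46, where Smc2 had -0.90, and that at a copy of Cdc20 on chromosome 16 had -0.23, where Cdc20 had -0.21. All 12 entries without a symbol thus had the direction of the gene they resemble. Entries with a symbol at copies were not counted, and these did not follow the gene. At a copy of Plk1, which had 24.9 and 33.7 RPKM, 2310079F23Rik had 2.85 and 2.81. The 9 entries whose loci span a copy of Ccnb2, which had 40.4 and 9.19 RPKM, summed to 21.5 and 24.2. The 12 entries belong to only 8 genes, as Prc1 and Cenpe each have 3 entries at a single copy. The share of all unnamed entries in each direction was not computed, so this count has no background. How many of their reads came from those genes was not tested.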

How the results depend on the processing

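The counts past 2-fold, 2 genes higher and 2 lower, and the median change of 0.27, kept their values or moved little under both other pseudocounts, the filters on RPKM, and without X-linked genes or joint entries, where the median lay between 0.25 and 0.27. With the median change of all named entries subtracted, 4 genes were higher (background 10.8%), 1 was lower (9.53%), and the median was 0.35. At a 1.5-fold threshold 14 genes were higher and 7 lower, against 16.2% and 23.2% of all named entries. Among the 36 genes without near-identical copies, 1 was higher and 0 lower, against 9.92% and 11.1% of all named entries. Genes with copies were not removed from that background. Of the 4 genes past 2-fold, 3 have such copies. Other pseudocounts moved no gene across 2-fold. No paired analysis was possible because there was 1 library per genotype. For the same reason no spread between replicates limits or supports any value. The deposited values hold no read counts, and the counting error was not computed.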

Other observations

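Some of the genes are close neighbours. Cenph and Ccnb1, on chromosome 13, are 2839 bases apart and had changes of 0.15 and 0.03. Tk1, the S-phase thymidine kinase, and Birc5, on chromosome 11, are 9296 bases apart and had changes of 1.34 and 1.19. Distances were computed for these pairs only, so they show no rule for neighbouring genes. Kif20a and Cdc23, whose entries share a locus on chromosome 18, went opposite ways, with changes of 0.42 and -0.26.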
